A study of Homo sapiens with 4 samples.

Results

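The 57 transcripts described here are the protein-coding genes with the highest read counts in wild type (WT) among 426 genes that the submitters of the data called as changed in MEG-01 cells after OGT depletion. They were taken from that table by a mean raw read count of at least 2000 over the 2 WT libraries. Genes of other types, genes on chromosomes 6, 8, 10, X and Y, and a fixed set of named genes and gene families (such as cytosolic ribosomal proteins and SR splicing factors), were left out, which together removed 41 of the 98 genes that reached that count. MEG-01 is a human megakaryoblastic leukaemia line that sheds platelet-like particles. Total RNA was sequenced in 2 WT libraries and 2 libraries with the genotype OGT depletion, taken as CRISPR/Cas9 targeting of OGT from the design text of the series, and both groups were grown in RPMI1640 with 10% serum. The guide and the number of clones were not stated. No label calls the replicates separate cultures, so errors and p-values measure how far these libraries differ from each other, possibly for technical reasons. The columns of the depleted libraries are headed OGTi with the numbers 1 and 2, and they were matched to the CR_OGT titles by number. The deposited group mean headed CR_OGT was reproduced from these columns within a relative error of 4.97e-10, so they hold that group. The meaning of OGTi is not stated, and the match of the replicate numbers could not be checked.

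Depth was 17643474 to 19883586 counted reads per library, as recovered from the deposited FPKM values. The 57 transcripts held 1.32% to 1.39% of those reads in each library, and 31.4% to 33.9% of the reads of the whole table. Transcript of OGT itself was at 66.9 and 93.1 FPKM in the depleted libraries against 115 and 146 in WT, which is 60.5% of WT in normalized counts. Of 40 megakaryocyte and platelet markers the table holds TUBB1 and F2R, so the labelled cell type could not be checked further. In bulk RNA, fewer cells of a kind and less RNA per cell cannot be told apart.

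OGT adds O-linked N-acetylglucosamine to serine and threonine residues of nuclear and cytosolic proteins, among them transcription factors, RNA polymerase II and nuclear pore proteins. A transcript is abundant when it is made fast or lasts long. A read count also grows with transcript length, so levels of different genes are compared here in FPKM, which divides by length and by the counted reads. Differences between groups are given in normalized read counts, which are raw counts divided by the submitters' size factor of the library. The order is WT replicates 1 and 2, then OGT-depleted replicates 1 and 2, unless stated.

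The table holds the 3.24% of about 13154 tested genes that passed the submitters' adjusted p. Membership therefore used the contrast itself, so the direction and size of each change below are a description and not a test. Of the 57 transcripts, 15 were higher after OGT depletion and 42 were lower. The median fitted log2 fold change was 0.52 (1.43-fold) among the higher transcripts and -0.55 (68.1% of WT) among the lower ones. Over all 426 listed genes 248 were higher, with a median of 0.90, and 178 lower, with a median of -0.63. APOE alone differed by at least 2-fold among the 57, against 121 of all 426. The WT count minimum leaves out genes that were high only after depletion. Of the 191 protein-coding genes that met the rest of the rule, 13 had a mean of at least 2000 reads after depletion, and 14 of the 57 were below it after depletion. The transcripts just inside the minimum were DNMT3B, NAA16 and NR2F1, with 2015, 2042 and 2075 reads, and those just outside included SERPINH1 and ABCA2, with 1946 and 1793.5.

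In a refit of the whole table with edgeR's quasi-likelihood test, 36 of the 57 passed an adjusted p of 0.05, beside 82.2% of all listed genes. These were 10 of the 15 higher transcripts and 26 of the 42 lower ones. By direction, 214 of the 248 higher and 136 of the 178 lower listed genes passed, which is 50.2% and 31.9% of all 426. The counts were 3 and 42 with TMM size factors from the listed genes alone, and 1 and 42 with DESeq2's size factors from those genes. Both sets of factors assume that most of those genes are unchanged, although all had been called as changed. With library totals (the counted reads), which do not rest on the listed genes, the counts were 14 and 29. Fewer members passed when either WT library was left out, while the number changed little when either depleted library was left out. In each of these fits the lone library is assumed to vary like the other group. The reason for the difference was not tested. The median log2 fold changes were 0.57 and -0.56 without WT replicate 1, and 0.58 and -0.52 without WT replicate 2. Without depleted replicate 1 they were 0.51 and -0.54, and without depleted replicate 2 0.62 and -0.58. The share of all listed genes that passed was taken for the first of these fits only. The 5 higher transcripts that missed were YBX1, FKBP1A, GPX1, SAMSN1 and LIMD2, and the 16 lower ones were LRP8, CBS, ITGA4, DNMT3B, PIEZO2, MYSM1, ACER3, TRIT1, MARS2, SCARF1, TNFRSF25, TIMP3, CPXM1, ZNF692, RABGGTB and KIAA0247. In all 57 the libraries of the 2 groups did not overlap, which holds for 100% of listed genes. The TMM and DESeq2 factors from the listed genes move the median of all listed genes by -0.21 and -0.49, which takes lower transcripts further below WT and higher ones towards it. With the DESeq2 factors, meant below by size factors from the listed genes, the 15 higher transcripts had a median log2 fold change of 0.029. FKBP1A, LIMD2, UCP2 and YBX1 were then below 0, and EPHB4 (0.012), SAMSN1 (0.013), GPX1 (0.027), MBOAT7 (0.029) and PRKCB (0.077) were closer to 0 than 1 SE. APOE, at 0.59, was the higher transcript that edgeR called on that scale. The transcripts are ordered below by roles that were assigned after their values were seen, so counts by role are a description. For comparison, 73.7% of the 57 and 41.8% of all listed genes were lower. By edgeR, 82.2% of all listed genes were called, so the calls given by role are a description too.

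Per length, the 57 transcripts spanned 16.9 FPKM (PIEZO2) to 895 FPKM (YBX1) in WT, with a median of 47.4 FPKM against 11.7 FPKM over all listed genes. The label of abundant transcripts holds per length only in part. Of the 57 listed genes with the highest WT FPKM 26 are members, and 118 listed genes outside the group exceeded PIEZO2. SREK1, an SR-related regulator of splicing with 9353 b of annotated length, was number 3 by read count and number 26 by FPKM. YBX1 alone held 10.6% and 9.32% of the reads of the 57 in WT and 14.9% and 14.0% after depletion. Of the 15 transcripts with the highest WT FPKM, 8 were higher after depletion and 7 lower. In the depleted libraries the 15 with the highest FPKM were 10 higher and 5 lower transcripts. Summed FPKM of the 15 higher transcripts was 2479 and 2352 in WT and 4112 and 3661 after depletion, and that of the 42 lower ones was 2721 and 2792 in WT and 1888 and 1883 after depletion.

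**Figure D1:**
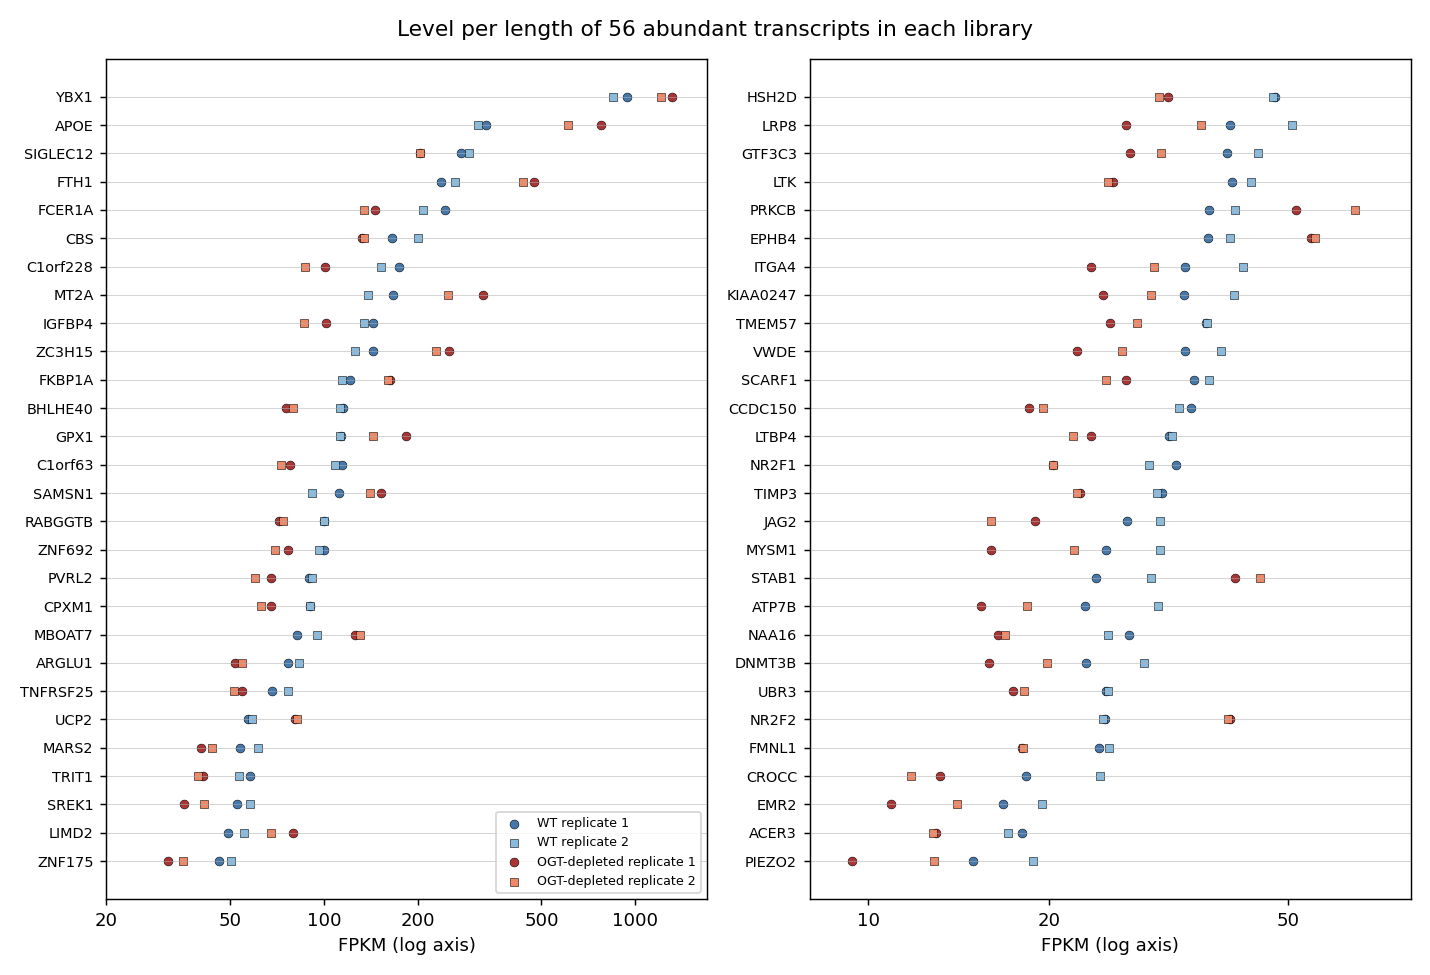
FPKM (log axis) of 56 of the 57 transcripts in each library, ordered by the WT mean, with blue symbols for WT and red or orange symbols for OGT-depleted replicates 1 (circles) and 2 (squares). YBX1 and APOE lead in all 4 libraries. In every row the WT symbols lie to one side of the OGT-depleted symbols, which holds for 100% of listed genes.

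Of 5 metal-binding and redox genes, 4 were higher, of which edgeR called 3, and 1 was lower and called. Of all listed genes, 82.2% were called. With size factors from the listed genes UCP2 was below 0 and GPX1 at 0.027. FTH1 encodes the heavy chain of ferritin, which oxidizes and stores iron. It had 5621 and 5912 normalized counts in WT and 10967 and 9715 after OGT depletion. Both depleted libraries were well above both WT libraries, at 0.84 ± 0.12 on the log2 scale (SE, n = 2 per group; 1.79-fold). MT2A, a metallothionein that binds zinc and copper, had 2891 and 2268 in WT and 5500.1 and 4074 after depletion. Its log2 fold change was 0.89 ± 0.16 (1.86-fold), and its depleted libraries differed from each other by 1.35-fold, the widest replicate ratio in that group. GPX1, the glutathione peroxidase that reduces hydrogen peroxide, had 2497 and 2345 in WT and 3968 and 2977 after depletion. It was 1.43-fold WT, with depleted replicate 1 again above replicate 2. UCP2, a carrier of the mitochondrial inner membrane, was at 1.38-fold WT, but not above WT with size factors from the listed genes. ATP7B, the copper-exporting ATPase, went the other way, from 2935 and 3666 to 1926 and 2207 (62.6% of WT). In FPKM, FTH1 was at 238 and 265 in WT and 474 and 438 after depletion, and MT2A at 166 and 138 in WT and 323 and 249.8 in the depleted libraries.

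The sequence before the MT2A start is shown because metallothionein promoters are known for metal response elements, the sites of the zinc-sensing factor MTF1. RefSeq sequences (GRCh38.p14, a different build from that of the deposited positions) were matched for 50 of the 57 genes, by symbol for 45 and by Ensembl ID for 5. FTH1, TRIT1, HSH2D, SCARF1, MYSM1 and EMR2 were among those without an entry. The 250 bases before the start of MT2A (chr16:56608334-56608583, plus strand) read as follows, with matches to TGCGCNC or TGCACNC on either strand in capitals.
MT2A: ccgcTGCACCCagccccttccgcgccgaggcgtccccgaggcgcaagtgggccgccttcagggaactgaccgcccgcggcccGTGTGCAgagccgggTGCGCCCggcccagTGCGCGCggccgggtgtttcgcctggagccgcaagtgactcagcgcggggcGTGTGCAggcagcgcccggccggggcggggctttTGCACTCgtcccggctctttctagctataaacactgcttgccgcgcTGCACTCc
This stretch holds 7 matches, a number reached by 0.0316% of 15843 protein-coding promoters of the same length (5 promoters). At least 1 match to either motif stood in 16 of the 50 matched members (32%) and in 29.3% of all promoters. A match is a run of letters and not a measured site.

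Among the lipoprotein genes APOE was higher and passed in edgeR, and its receptor LRP8 had lower counts after depletion and did not pass (edgeR adjusted p of 0.0865). APOE, the apolipoprotein that lipoprotein receptors bind, had 7727 and 6840.5 normalized counts in WT and 17626 and 13260.4 after depletion. At 1.08 ± 0.15 on the log2 scale (SE, n = 2 per group; 2.12-fold) this was the largest increase of the 57, and APOE was number 2 by FPKM in both groups, at 333 and 312 in WT and 775 and 608 after depletion. LRP8, also named APOER2, had 3435 and 4119 normalized counts in WT and 2257 and 2897 after depletion, or 68.2% of WT. Replicate 2 was the higher of the pair for LRP8 in both groups, and the lower for APOE. The FPKM ratio of APOE to LRP8 was 8.32 and 6.14 in WT and 28.9 and 16.9 after depletion. A ratio within a library does not depend on its size factor, but differences between libraries that run with length remain in it. Annotated length is 1208 b for APOE and 4467 b for LRP8. Across the 57, the log2 ratio of replicate 1 over replicate 2 declined with length (Spearman rho of -0.56 in WT and -0.63 after depletion). The part of length in the APOE to LRP8 ratio was not tested. Both genes were listed for their changes, so the ratio is a description. Of the lipid enzymes, MBOAT7, which acylates lysophosphatidylinositol, was at 1.43-fold WT (4799 and 5250.3 against 7210.0 and 7170.3), and the ceramidase ACER3 was at 72.5% of WT. Of 33 genes of lipid and sterol synthesis 2 are in the table, both lower.

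The stretches before the starts of APOE and LRP8 are set side by side because they belong to a ligand and its receptor. They cover 150 bases (chr19:44905646-44905795, plus strand, and chr1:53328071-53328220, minus strand), with GC boxes, GGGCGG on either strand and known as sites of Sp1-type factors, in capitals.
APOE: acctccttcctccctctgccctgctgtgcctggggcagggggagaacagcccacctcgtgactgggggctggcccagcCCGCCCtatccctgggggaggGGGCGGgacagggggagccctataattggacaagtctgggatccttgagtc
LRP8: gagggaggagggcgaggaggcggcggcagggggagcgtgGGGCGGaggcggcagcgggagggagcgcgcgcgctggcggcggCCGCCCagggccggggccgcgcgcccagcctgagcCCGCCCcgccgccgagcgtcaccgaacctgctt
APOE has 2 GC boxes and LRP8 has 3. Numbers as high or higher stand in 33.9% and 19.7% of protein-coding promoters over 250 bases. A GC box stood in 35 of the 50 matched members (70%), against 56.0% of all promoters, and in 10 of 14 higher and 25 of 36 lower members.

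**Figure D2:**
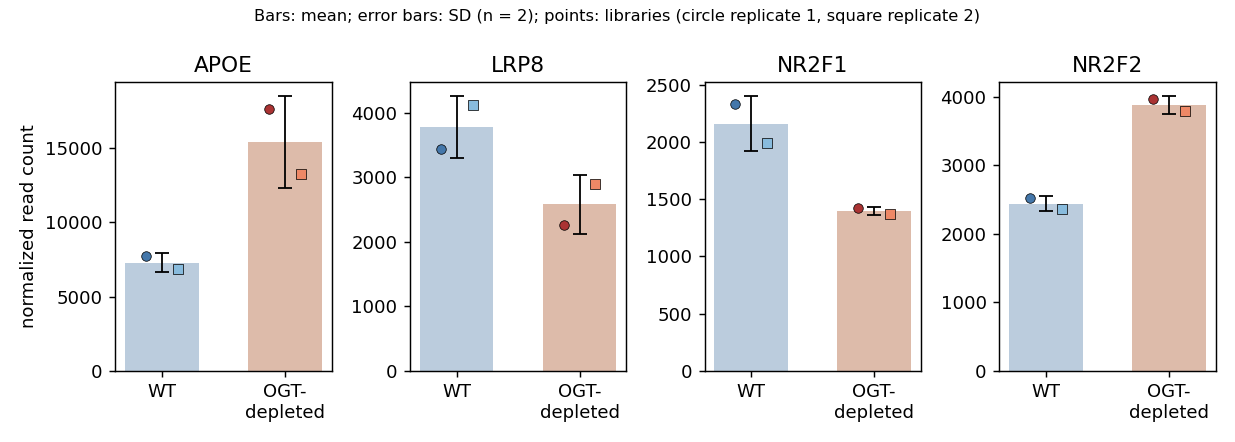
Normalized read counts of APOE, its receptor LRP8, and the paralogues NR2F1 and NR2F2, with bars for the mean, error bars for the SD (n = 2) and points for the libraries, each panel on its own axis from 0. APOE and NR2F2 are higher in both OGT-depleted libraries, and LRP8 and NR2F1 are lower in both. With size factors from the listed genes, the log2 fold change of NR2F2 is 0.18 ± 0.13 (SE).

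Genes of RNA binding and translation had 2 higher and 5 lower members. YBX1 encodes YB-1, an mRNA-packaging protein that also binds promoters with a CCAAT (Y-box) motif. It was the most abundant transcript of the 57, with 27579.5 and 23523 normalized counts in WT and 37796 and 33227 after depletion. Its log2 fold change was 0.47 ± 0.14 (SE, n = 2 per group), or 1.39-fold. It was 0.50 with library totals and -0.014 with size factors from the listed genes, all of which had been called as changed. Its direction was thus not the same under every scaling. Annotation release 29 of GENCODE names 10 pseudogenes of YBX1, 25 of FTH1, 5 of CROCC, 4 of FKBP1A and 2 of GPX1, so reads of near-identical copies may be split in ways that are not given. ZC3H15, a zinc finger protein that partners the translation GTPase DRG1, had 5910.1 and 4875 in WT and 10130 and 8841 after depletion. Both depleted libraries exceeded both WT libraries by a wide margin, at 0.81 ± 0.14 (1.76-fold).

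The 250 bases before the YBX1 start (chr1:42682168-42682417, plus strand) are shown because the gene's own product is named for the CCAAT motif, which is in capitals on either strand.
YBX1: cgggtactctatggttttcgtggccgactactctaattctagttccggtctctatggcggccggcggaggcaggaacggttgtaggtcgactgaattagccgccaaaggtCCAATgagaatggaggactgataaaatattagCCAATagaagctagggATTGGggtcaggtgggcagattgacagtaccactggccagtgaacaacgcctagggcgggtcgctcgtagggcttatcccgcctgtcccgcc
There are 3 matches, and 3.70% of protein-coding promoters hold as many or more. CCAAT stood in 7 of 14 higher and 9 of 36 lower members with a sequence, 32% of the 50 together, against 34.5% of all promoters.

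Of the 5 lower genes of this role edgeR called 3. ARGLU1, an arginine- and glutamate-rich protein of nuclear speckles, had 5019 and 5124 normalized counts in WT and 3321 and 3335 after depletion. Its SDs were 73.8 and 9.37 counts, and the difference was -0.61 ± 0.11 (65.6% of WT). C1orf63, an arginine/serine-rich protein also called RSRP1, had 6680 and 5975 in WT and 4453 and 3981 after depletion (66.7% of WT). SREK1 was at 68.8% of WT, TRIT1, which modifies tRNA, at 71.0%, and MARS2, the mitochondrial methionyl-tRNA synthetase, at 71.9%. YBX1 and another gene, both higher, are the genes of the table among 60 of RNA binding and mRNA processing, and none of 48 translation factors and cytosolic tRNA synthetases is in it.

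Of 8 transcription and chromatin genes 7 were lower (87.5%, beside 73.7% of the 57), of which edgeR called 4, and NR2F2 was higher and called. NR2F1 and NR2F2 encode the COUP-TF orphan nuclear receptors, close paralogues that bind similar DNA elements. NR2F1 had 2333 and 1992 normalized counts in WT and 1426 and 1372 after depletion, at -0.63 ± 0.12 on the log2 scale (SE, n = 2 per group; 64.7% of WT). NR2F2 had 2521 and 2363 in WT and 3976 and 3793 after depletion, at 0.67 ± 0.11 (1.59-fold). The paralogues thus went in opposite directions on the submitters' scale. With size factors from the listed genes NR2F2 was at 0.18 ± 0.13 and NR2F1 at -1.12 ± 0.13. The FPKM ratio of NR2F2 to NR2F1 was 0.764 and 0.839 in WT and 1.97 and 1.96 after depletion, so that NR2F1 had the higher level per length in both WT libraries and NR2F2 in both depleted ones. BHLHE40, a helix-loop-helix repressor of the circadian and hypoxia responses, had 7715 and 7099 normalized counts in WT and 4936 and 4978 after depletion (66.9% of WT). It had the highest FPKM of this role, at 116 and 112 FPKM in WT and 75.5 and 79.3 after depletion. DNMT3B, a de novo DNA methyltransferase, was at 68.0% of WT and was the gene in the table among 57 of chromatin and general transcription. The histone H2A deubiquitinase MYSM1 was at 67.6% of WT, GTF3C3, a subunit of TFIIIC, at 68.0%, and the zinc finger genes ZNF175 and ZNF692 at 68.5% and 73.4%.

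Of 12 cell-surface genes 10 were lower (83.3%, beside 73.7% of the 57), of which edgeR called 6, and 2 were higher and called. FCER1A, the IgE-binding chain of the high-affinity receptor of mast cells and basophils, had 5492 and 4418 normalized counts in WT and 3203 and 2825 after depletion. Its log2 fold change was -0.72 ± 0.13 (SE, n = 2 per group; 60.8% of WT), and at 245 and 209 FPKM in WT it was the second surface gene by level. Of 22 mast cell and basophil markers 8 are in the table, 6 higher and 2 lower, and their summed FPKM was 316 and 274 in WT and 285 and 261 after depletion. FCER1A was the lower gene that carried most of that sum, and the part of such cells in its change was not tested. SIGLEC12, a sialic acid-binding-type lectin, led the surface genes at 275 and 293 FPKM in WT and 204 and 204 after depletion. Its normalized counts of 11237 and 11284 in WT and 8165 and 7826 after depletion gave 71.0% of WT, with a WT SD of 33.6 counts.

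LTK, a receptor tyrosine kinase, had 2668 and 2718 normalized counts in WT and 1657 and 1558 after depletion (-0.74 ± 0.11; 59.7% of WT). JAG2, a Notch ligand, had 3034 and 3243 in WT and 2084 and 1688 after depletion (-0.73 ± 0.13; 60.1% of WT). The depleted libraries of JAG2 differed more from each other than those of LTK. Neither gene's groups overlapped, which holds for 100% of listed genes. The mechanically gated channel PIEZO2 was at 65.1% of WT, with 2691 and 3199 in WT and 1656 and 2180 after depletion. ITGA4, the alpha-4 integrin chain, was at 69.7%, the adhesion G-protein-coupled receptor EMR2 at 68.0%, PVRL2, or nectin-2, at 69.4%, the scavenger receptor SCARF1 at 71.3% and the death receptor TNFRSF25 at 72.3%. The surface exceptions were STAB1 and EPHB4. STAB1, the scavenger receptor stabilin-1, had 3659 and 4260 in WT and 6085 and 6430.4 after depletion (0.66 ± 0.12, or 1.58-fold). With size factors from the listed genes STAB1 was at 0.17 ± 0.13. EPHB4, the receptor of ephrin-B2, had 3587 and 3680 in WT and 5207 and 5066 after depletion (1.41-fold). Of 67 adhesion and receptor genes 9 are in the table, 5 higher and 4 lower, of which edgeR called 4 and 2, and ITGA4 and LRP8 are the members among them.

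All 5 secreted and matrix genes were lower, beside 73.7% of the 57, and edgeR called 3. IGFBP4, which binds insulin-like growth factors, had 6068 and 5386 normalized counts in WT and 4201 and 3426 after depletion (-0.59 ± 0.13; 66.6% of WT). It was at 143 and 135 FPKM in WT, far above the rest of this role, whose highest WT mean was 90.1 FPKM for the carboxypeptidase-like CPXM1. VWDE, with von Willebrand factor D and EGF domains, was at 66.4% of WT, the TGF-beta-binding protein LTBP4 at 70.4%, CPXM1 at 71.7% and the metalloproteinase inhibitor TIMP3 at 72.3%.

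Signalling genes had 4 higher members, of which edgeR called PRKCB, and 2 lower members, both called. PRKCB, protein kinase C beta, had 5655 and 5910.5 normalized counts in WT and 7740.5 and 9305 after depletion (0.56 ± 0.13; 1.47-fold). It was the gene in the table among 67 of intracellular signalling. SAMSN1, an adaptor of blood cells, had 4712 and 3640 in WT and 6264 and 5560.1 after depletion (1.42-fold). Its WT libraries differed by 1.29-fold, the widest WT ratio of the 57, and it overlaps SAMSN1-AS1 on the other strand, which was higher too (1.32 on the log2 scale), so without strand their reads cannot be told apart. FKBP1A, the prolyl isomerase that binds rapamycin and FK506, was at 1.36-fold WT (3774 and 3373 against 4993 and 4713), and LIMD2, a LIM-domain protein, at 1.39-fold; with size factors from the listed genes their log2 fold changes were -0.046 and -0.015. The SH2 adaptor HSH2D was at 64.6% of WT, with 2268 and 2119.5 in WT and 1471 and 1365 after depletion, and the formin FMNL1 at 72.1%.

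The remaining 9 genes, of protein modification, metabolism and other or unassigned roles, were all lower, with 6 called by edgeR, and hold the 3 largest decreases. CCDC150, a coiled-coil protein, had 2447 and 2208 normalized counts in WT and 1286 and 1304 after depletion. At -0.85 ± 0.12 (SE, n = 2 per group), or 55.6% of WT, it was the largest decrease of the 57. Its log2 fold change was -0.77 without WT replicate 1 and -0.92 without WT replicate 2. Without depleted replicates 1 and 2 in turn it was -0.84 and -0.86. C1orf228 had 7095 and 5860.0 in WT and 4018 and 3325 after depletion (-0.82 ± 0.14; 56.7% of WT), with replicate 1 the higher in both groups. CROCC, rootletin of the ciliary rootlet, had 2349 and 2940.3 in WT and 1650.2 and 1419 after depletion (-0.79 ± 0.14; 58.0% of WT). NAA16, an auxiliary subunit of an N-terminal acetyltransferase, had 2278 and 1978 in WT and 1350 and 1327 after depletion (62.9% of WT). CBS, which joins homocysteine and serine to cystathionine, had 8431 and 9711 in WT and 6613 and 6470 after depletion (72.1% of WT), and was at 165 and 201 FPKM in WT. CBS is 1 of 2 genes of the table, both lower, among 41 of amino acid, one-carbon and nucleotide synthesis. The ubiquitin ligase UBR3 was at 70.3% of WT, RABGGTB, a subunit of Rab prenyl transferase, at 71.8%, TMEM57 at 71.8% and KIAA0247 at 71.9%.

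**Figure D3:**
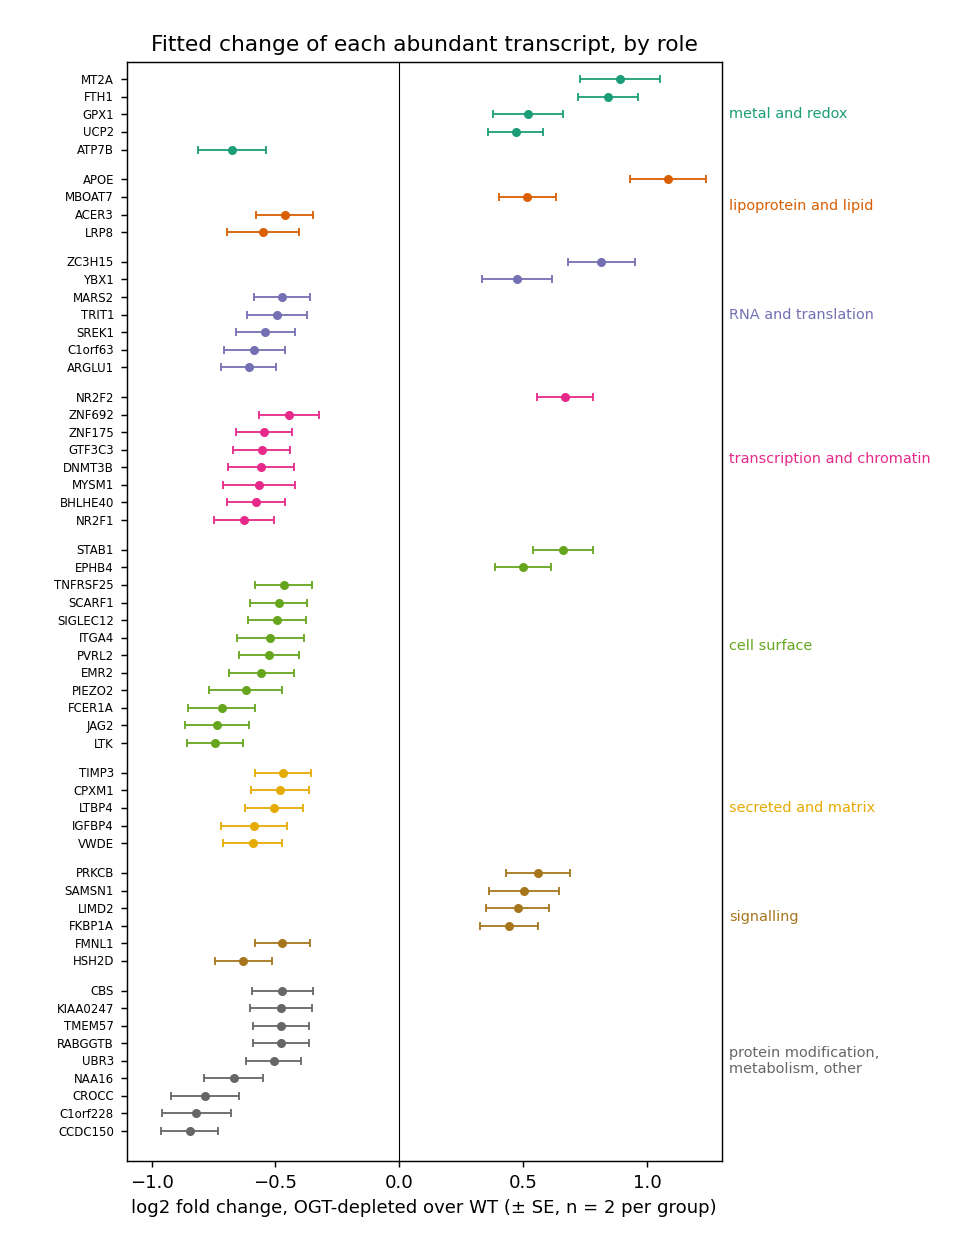
Fitted log2 fold change (OGT-depleted over WT) of 56 of the 57 transcripts with its SE (n = 2 per group), grouped and coloured by role. APOE at 1.08 and CCDC150 at -0.85 are the extremes, and the roles were assigned after the values were seen; FKBP1A, LIMD2, UCP2 and YBX1 do not stay above 0 with size factors from the listed genes.

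Higher members had a lower median length than lower ones, and replicates also differed with length. Annotated length had a median of 2138 b among the 15 higher members and 3890 b among the 42 lower ones. Of 19 members under 3000 b 9 were higher (47.4%), and of 38 longer members 6 were higher (15.8%). The same split over the other 369 listed genes gave 74.8% of 147 and 55.4% of 222. All 19 short members, FTH1, MT2A, APOE and FCER1A among them, had more normalized counts in OGT-depleted replicate 1 than in replicate 2, and 16 of them had more in WT replicate 1 than in WT replicate 2. Of the 38 longer members 18 and 14 did. Across the 57 genes, which share the libraries and are not independent, length had a Spearman rho of -0.63 with the log2 ratio of the depleted replicates and -0.56 with that of the WT replicates. With the log2 fold change it was -0.27. The part of length in the changes was not tested.

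**Figure D4:**
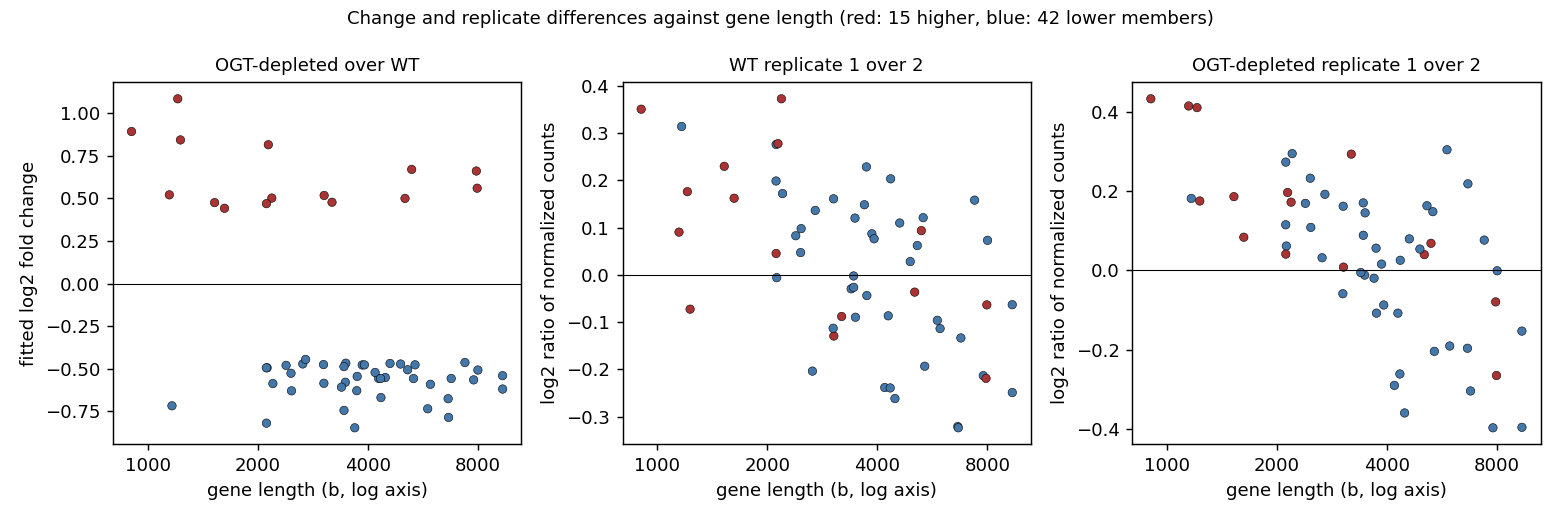
Gene length (b, log axis) against the fitted log2 fold change and against the log2 ratio of normalized counts of replicate 1 over replicate 2 in WT and in OGT-depleted cells, for 15 higher (red) and 42 lower (blue) members. Both replicate ratios decline with length (rho of -0.56 and -0.63), and every member under 3000 b lies above 0 in the OGT-depleted panel; FKBP1A, LIMD2, UCP2 and YBX1 are higher by the submitters' size factors and not by those of the listed genes.

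By position (hg19, as deposited), chromosome 1 held 12 of the 57, 11 of them lower, and chromosome 19 held 9, 7 of them lower. YBX1 was the higher member of chromosome 1, and APOE and MBOAT7 those of chromosome 19. Over all listed genes 17 of 43 on chromosome 1 and 16 of 35 on chromosome 19 were higher. CCDC150 (chr2:197504278-197628214) and GTF3C3 (chr2:197627756-197664449) lie on opposite strands and overlap by 459 b, so their reads in the overlap cannot be told apart without strand, and both were lower. MARS2, 906 kb further on, was lower too. PVRL2 (chr19:45349432-45392485) ends 16.5 kb before APOE (chr19:45409011-45412650), and the neighbours went in opposite directions, at 69.4% and 212% of WT. SIGLEC12 and ZNF175 lie 69.5 kb apart and were both lower, as were C1orf63 and TMEM57 at 92.7 kb.

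Promoters of the 50 matched members had a median GC content of 67.2% and 21.5 CpG pairs over 250 bases, against 62.4% and 17 over all protein-coding promoters. Higher and lower members had medians of 67.2% and 67.0%. FCER1A, at 42% with no CpG, and SAMSN1, at 37.6% with 2, were at the low end, and LIMD2, at 83.2% with 45, at the high end. Other motifs, searched on both strands, were near their share in all promoters: TATAAA in 10% of members against 9.23%, CACGTG in 8% against 7.84%, TGACNNNGC in 14% against 11.5% and CCGGAAG in 16% against 11.8%. TGACGTCA, found in 2.32% of all promoters, stood in none of the 50.

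Among 22 gene lists of pathways and cell types, 7 held a member, 8 members in all, among them FCER1A, CBS, ITGA4, LRP8, PRKCB, DNMT3B and YBX1. Of all 8, PRKCB and YBX1 were higher (YBX1 not by size factors from the listed genes) and the others lower. No member was in the lists of megakaryocyte, erythroid, lymphoid or monocyte markers, glycolysis and hypoxia, mitochondrial carriers, chaperones, the cytoskeleton, blood cell transcription factors, vesicle traffic, cell cycle, histones, hexosamine enzymes, translation factors or O-GlcNAc carriers. The table holds none of 31 nucleoporins and other O-GlcNAc carriers, none of 50 vesicle and lysosome genes and none of 24 monocyte and granulocyte markers. It holds 3 of 32 erythroid markers (2 higher, 1 lower), 1 of 23 lymphoid markers (higher), 2 of 40 megakaryocyte markers (1 higher, 1 lower), 3 of 38 glycolysis and hypoxia genes (higher), 3 of 63 cytoskeleton genes (1 higher, 2 lower) and 3 of 16 hexosamine enzymes (1 higher, 2 lower). Of 50 chaperone and ubiquitin genes 1 was higher, of 39 mitochondrial carrier and respiratory genes 1 was higher, of 20 histones 2 were higher, of 40 blood cell transcription factors 1 was higher and of 46 cell cycle genes 1 was lower. Genes outside the table were not analysed here, so their levels are unknown.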

How the data were processed

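The deposited table gives raw read counts per gene and library, without normalization, for the 426 genes that the authors called. The submitters' processing notes name hg19, CASAVA 1.8, TopHat, STAR 2.5 and DESeq2, with no role for any of them. The counting tool, its annotation and its use of strand were not given in the sources used here. The deposited FPKM values were scaled by the authors to gene length and counted reads, per the values. A normalized signal, the mean of each group, was also deposited by the authors, and from it their size factors were solved (0.950 and 0.971 in WT, 1.06 and 1.04 in OGT-depleted libraries). The authors also deposited log2 fold changes and p-values, raw and adjusted, per the file headers. These set which genes are listed, and about 13154 tested genes were recovered from them.

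Counts of all 426 genes were fitted with edgeR 4.0.16 (glmQLFit, glmQLFTest) in R 4.3.3, with library sizes proportional to those size factors. All passed filterByExpr. Benjamini-Hochberg adjustment ran over 13154 genes, at 0.05. SE was taken as the log2 fold change divided by the root of F. The fit was tested on simulated data. Alternatives were factors from the listed genes (TMM or DESeq2), library totals, no filter, DESeq2 1.42.0, each library left out, a replicate block and a WT minimum of 4000.

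Members, lists and roles were chosen with earlier results of these data known. Genes named by rule (35) were the 15 with the highest WT FPKM, the 12 largest changes each way, list members and the 3 nearest the minimum; the other 22, and the 8 roles, were added after their values were seen. Values of 1 member are not reported here.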

Additional observations from a re-analysis of the deposited data

How the results depend on the processing

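Membership fixed the directions on the submitters' scale, so no count of kept directions is given. With size factors that DESeq2 takes from the listed genes, the log2 fold changes of FKBP1A, LIMD2 and YBX1 were -0.046, -0.015 and -0.014, and UCP2 was also below 0. These factors assume that most listed genes are unchanged, although the submitters called all of them as changed. Calls of higher and lower members, 10 and 26 in edgeR, became 3 and 42 with TMM factors (medians of 0.31 and -0.76) and 1 and 42 with DESeq2's factors (0.029 and -1.04). With library totals they were 14 and 29 (medians of 0.54 and -0.53). DESeq2's own test called 15 and 41. A WT minimum of 4000 reads left 5 and 9, because fewer genes enter. Leaving out each library in turn gave 0 to 12 higher and 1 to 27 lower calls; the lowest counts came without WT replicate 2, where the lone WT library is assumed to vary like the other group.

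With the replicate number as a block, edgeR called 0 higher and 0 lower members. An unadjusted p under 0.05 was found for 15 and 42, but members were listed for a low p in these same libraries. That count is therefore no support for the changes, and the share of all listed genes was not taken for this fit. The median log2 fold changes with the block were 0.52 and -0.56, beside 0.52 and -0.55 without it. Deviations of same-numbered libraries correlated across the listed genes (r = 0.50) and across the 57 (r = 0.63), but the labels give no shared culture or day, so the libraries share only a number. With 2 libraries per group, the precision of each change is limited by replicate spread, since the members have high counts.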
